A study of Homo sapiens with 31 samples.

Results

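The comparison is between untreated footprints of EIF4A1 knockout (KO) and EIF4A2 KO cells: 4 ribosome profiling libraries, 2 of each genotype, out of 12 profiling libraries and 31 libraries in all. They were chosen by their labels alone. All come from HEK293 T-REx, a human embryonic kidney line that carries a repressor for inducible transgenes, and all 4 received DMSO, the solvent of the mTOR kinase inhibitor PP242. Shown beside them are 2 DMSO libraries of naive cells and 4 of both knockouts after 30 min of PP242 at 1 or 10 µM. The PP242 libraries number 1 per dose and genotype. None of these enters the main test of the untreated difference. Naive DMSO libraries enter 1 alternative fit of it, and all 31 libraries were used to keep 1 transcript per locus. The labels do not say how each knockout was made, whether it is 1 clone, or whether replicates came from separate cultures, so p-values measure the spread between these libraries. Titles of the EIF4A2 KO libraries are written in another form than those of the EIF4A1 KO and naive profiling libraries, and no preparation dates are given; genotype and any difference in preparation cannot be told apart.

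eIF4A1 and eIF4A2 are close paralogs of the DEAD-box RNA helicase family. As the helicase subunit of eIF4F, which binds the mRNA cap, eIF4A unwinds structure in the 5' leader so that the small ribosomal subunit can load and scan. eIF4A2 has also been linked to the CCR4-NOT deadenylase complex and to repression of its target mRNAs. Ribosome profiling sequences the RNA fragments (footprints) that ribosomes protect from RNase I, so the footprint level of a coding region joins its mRNA abundance and its translation. A direct comparison of the knockouts shows how footprints differ between cells that lack one paralog and cells that lack the other.

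The files list transcripts by Ensembl ID and do not pair them with genes. Transcripts are therefore described by length, level and behaviour in other libraries, and 4 are given by ID. Neither the loss of EIF4A1 and EIF4A2 nor the markers of the cell line could be looked up, so genotype and cell type rest on the labels. Summed over 1 transcript per locus, the EIF4A1 KO libraries held 2748706 and 2515013 counts and the EIF4A2 KO libraries 4991060 and 5388072, so the EIF4A1 KO values are the less precise. Log2 levels of replicates correlated across transcripts with r = 0.979 for the EIF4A1 KO and 0.985 for the EIF4A2 KO pair. Replicates differed by more than sampling noise (chi-square per transcript 1.25 and 1.56, where sampling alone gives about 1) and were counted as separate samples.

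Footprints of many transcripts differed between the knockouts, in near equal numbers each way. Of 17909 transcripts tested, 2072 were higher in EIF4A1 KO cells (11.6%) and 2253 were lower (12.6%), together 4325 or 24.1%, by edgeR's quasi-likelihood test at a Benjamini-Hochberg adjusted p under 0.05. The median size among the calls was 0.57 log2 units for those higher and 0.68 for those lower. More than 1 log2 unit separated the genotypes for 374 of the higher and 602 of the lower transcripts, and more than 2 units for 52 and 87. The libraries of the genotypes did not overlap for 2068 and 2250 of the calls, beside 61.1% of all transcripts tested. The number of calls depended on the method: the DESeq2 Wald test called 1732, with 865 higher and 867 lower. With EIF4A1 KO replicate 1 left out, which removes a replicate and its counts together, edgeR called 2583.

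**Figure D1:**
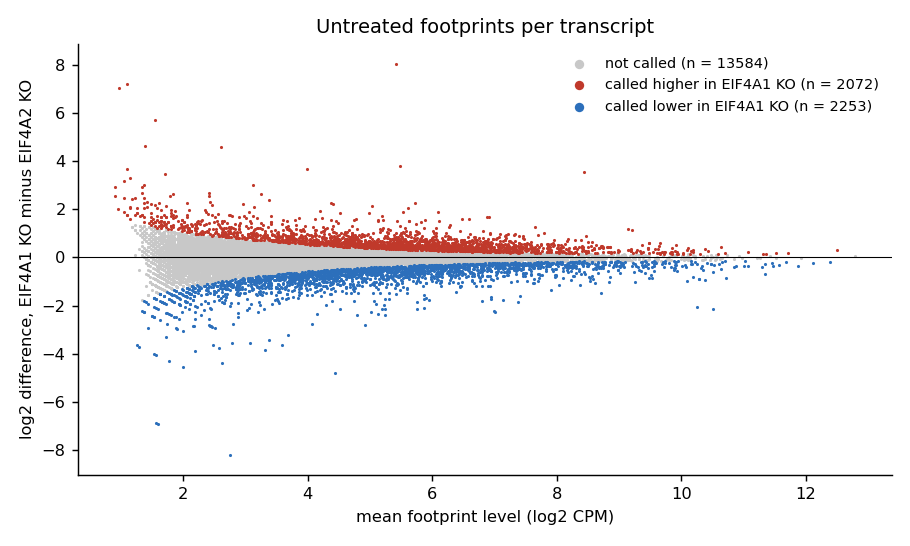
Log2 difference in footprints, EIF4A1 KO minus EIF4A2 KO (vertical axis), against the mean level in log2 CPM (counts of each library brought to a common total; horizontal axis); each point is 1 of 17909 transcripts, coloured where edgeR called it. Calls lie on both sides of 0 at every level, and the smallest difference called narrows as the level rises.

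Calls were more frequent where counts were higher. Among transcripts with a mean level of 2 to 3 log2 CPM 10.1% were called, with a median absolute difference of 1.25 among the calls. Above 7 log2 CPM 52.5% were called, with a median of 0.34. Differences below about 1 log2 unit were thus mostly not detectable for transcripts of low footprint level at this depth. The 5694 transcripts at 5 log2 CPM or more, called abundant below, had 1214 higher calls (21.3%) and 1187 lower calls (20.8%), together 42.2%.

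At the extremes of the comparison footprint levels differed by more than 2 log2 units. Some of these transcripts were nearly absent from the footprints of 1 knockout. Among the 3569 calls with a mean of at least 10 CPM and no overlap between genotypes, the 12 with the largest increase in EIF4A1 KO cells ranged from 2.11 to 8.05 log2 units. The 12 with the largest decrease ranged from -4.79 to -2.14. The first 2 in each direction are given with their levels.

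ENST00000323076.7 was nearly lost in EIF4A2 KO cells. Its footprints stood at 124 and 109 CPM in the EIF4A1 KO libraries (330 and 264 counts) and at 0.213 and 0.594 CPM in the EIF4A2 KO libraries (1 and 3 counts). Naive cells had 69.5 and 75.1 CPM, so the EIF4A2 KO libraries alone were low. From summed counts the EIF4A1 KO level was 285 times that of EIF4A2 KO cells, with a 95% exact counting interval of 111 to 1048. The fitted log2 difference was 8.05 (edgeR adjusted p 4.32e-31). It was 7.54 without EIF4A2 KO replicate 1 and 8.86 without EIF4A2 KO replicate 2. Under PP242 the EIF4A1 KO libraries held 105.9 CPM at 1 µM and 110.2 at 10 µM, and the EIF4A2 KO libraries 3.88 and 1.14. Its RNA stood at 61.1 and 63.4 CPM in EIF4A1 KO cells, below the 79.0 and 68.4 CPM of naive cells. One other listed transcript had the same counts in all libraries, so the signal may belong to either.

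ENST00000297258.11 was also lowest in EIF4A2 KO cells, with a smaller difference. It stood at 112 and 107 CPM in EIF4A1 KO, 8.29 and 7.52 in EIF4A2 KO, and 125 and 129 in naive cells. The EIF4A2 KO libraries were again the only low ones among the untreated libraries. The log2 difference was 3.804 (edgeR adjusted p 9.26e-27), with 559 counts against 77. Its RNA in EIF4A1 KO cells, 43.6 and 44.8 CPM, lay below that in naive cells, 55.6 and 54.7 CPM. The libraries used here include no RNA-seq of EIF4A2 KO cells.

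ENST00000402252.6 was nearly absent from EIF4A1 KO cells, in footprints and in RNA. Its footprints stood at 1.13 and 1.23 CPM in EIF4A1 KO (3 counts in each library), 33.8 and 33.6 in EIF4A2 KO, and 21.5 and 30.9 in naive cells. From summed counts, the EIF4A2 KO level was 28.6 times that of EIF4A1 KO cells (95% exact counting interval 13.0 to 78.5). The log2 difference was -4.79 (edgeR adjusted p 6e-17). RNA-seq found 1 and 3 counts in the EIF4A1 KO libraries and 921 and 1012 in the naive ones. The near loss of footprints thus went with a near loss of the RNA.

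ENST00000367466.4 had 2.63 and 1.23 CPM in EIF4A1 KO, 20.4 and 17.2 in EIF4A2 KO, and 17.4 and 16.7 in naive cells. Its log2 difference was -3.22 (edgeR adjusted p 2.1e-10). Its RNA was low in EIF4A1 KO cells as well, at 0.889 and 0.919 CPM against 14.4 and 14.9 in naive cells. For both transcripts lower in EIF4A1 KO cells, naive and EIF4A2 KO footprints were on one side and EIF4A1 KO footprints on the other.

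**Figure D2:**
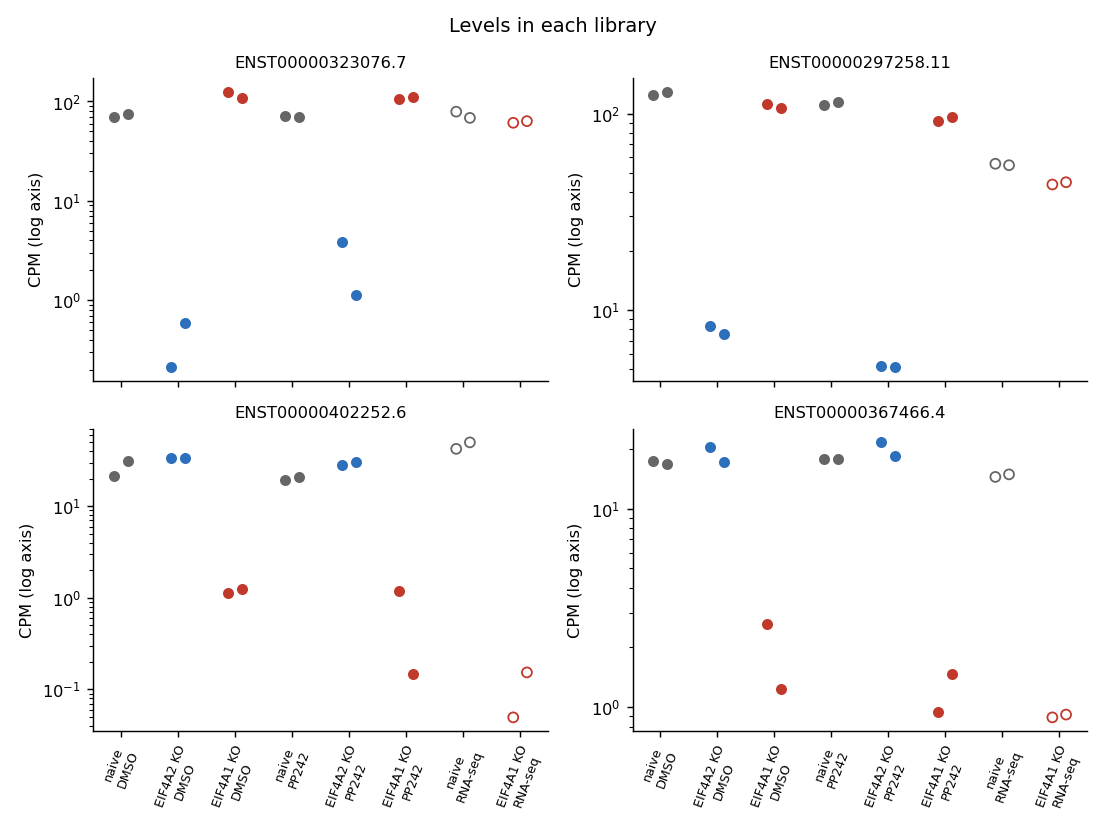
Level in CPM (log axis) of the 4 transcripts in each library; filled points are footprints in DMSO and under PP242 (1 and 10 µM, 1 library each), open points RNA-seq, grey for naive, blue for EIF4A2 KO and red for EIF4A1 KO cells. In the upper panels the EIF4A2 KO libraries stand apart from the rest, and in the lower panels the EIF4A1 KO libraries, footprints and RNA alike.

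The directions at the extremes were the same in libraries the untreated test did not use. All 12 transcripts with the largest increase and all 12 with the largest decrease were called in the same direction under PP242, with log2 differences of 1.495 to 5.463 and -5.70 to -1.11. The naive level was nearer to EIF4A2 KO than to EIF4A1 KO for 8 of the 12 highest and 11 of the 12 lowest. That share was 61.4% among transcripts not called, and 75.6% and 80.4% among all higher and all lower calls. RNA in both EIF4A1 KO libraries moved the same way against both naive libraries for 10 of the 12 highest and 10 of the 12 lowest. Over all transcripts tested, both were higher for 39.5% and both lower for 31.7%. RNA moved the opposite way for 2 of the highest, ENST00000323076.7 and ENST00000297258.11, and for 1 of the lowest. A change in the same direction of at least 1 log2 unit was seen for 3 of the highest and 6 of the lowest.

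Naive libraries, which the test behind the calls did not use, lay more often with EIF4A2 KO than with EIF4A1 KO cells. Among the transcripts called higher in EIF4A1 KO cells, the naive level was nearer to EIF4A2 KO for 1566 of 2072 (75.6%). Among those called lower it was nearer to EIF4A2 KO for 1811 of 2253 (80.4%). The same share was 61.4% among the transcripts not called, so part of this lean was common to all transcripts, and the EIF4A1 KO libraries are also the shallowest. Transcripts called higher lay a median of 0.44 log2 units above naive in EIF4A1 KO cells and 0.11 below it in EIF4A2 KO cells (-0.11). For those called lower the same medians were -0.54 for EIF4A1 KO and 0.13 for EIF4A2 KO. The naive level was between the knockouts for 1312 of the higher and 1550 of the lower calls, below both for 669 and 75, and above both for 91 and 628.

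The same genotypes were then compared in the 4 PP242 libraries. Here 3892 of 19327 transcripts were called (20.1%), 1968 higher (10.2%) and 1924 lower (9.95%) in EIF4A1 KO cells. Of the 2060 transcripts called higher in DMSO and tested under PP242, 1709 were above 0 again (83.0%), 913 were called higher (44.3%) and 30 were called lower. Of the 2234 called lower in DMSO, 503 were above 0 (22.5%), 898 were called lower (40.2%) and 95 were called higher. Their median log2 differences under PP242 were 0.31 and -0.27, smaller than the 0.57 and -0.68 of the libraries in which they were selected. Across 17762 transcripts the differences in DMSO and under PP242 had a rank correlation (Spearman rho) of 0.44 and a linear one (Pearson r) of 0.60. These sets share no library, but they share the cell lines. The 2 PP242 libraries of a genotype differ in dose, so their spread includes any effect of dose, and the DESeq2 Wald test called 1628 transcripts.

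**Figure D3:**
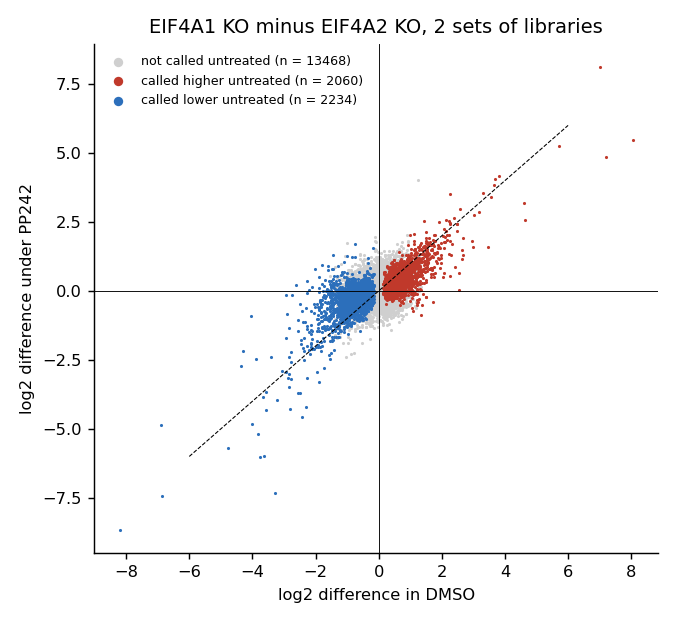
Log2 difference, EIF4A1 KO minus EIF4A2 KO, in DMSO (horizontal axis) and under PP242 (vertical axis) for 17762 transcripts, coloured by the call in DMSO; the dashed line marks equal values. Most coloured points lie in the quadrants of equal sign; the largest difference, 8.05 in DMSO, lies below the line at 5.46 under PP242.

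Footprint differences went with RNA differences. RNA-seq compared EIF4A1 KO with naive cells (4 libraries, none shared with the footprint comparison). Both EIF4A1 KO libraries were above both naive ones for 1518 of the 2072 transcripts called higher (73.3%), beside 39.5% of all tested. Both were below for 1415 of the 2253 called lower (62.8%), beside 31.7% of all. The median RNA change was 0.25 and -0.20 log2 units. Taken from the RNA side, 396 abundant transcripts had RNA higher in EIF4A1 KO cells by at least 0.5 log2 units in non-overlapping libraries. Of these, 242 were called higher and 16 lower in the footprints (61.1% and 4.04%), beside 21.3% and 20.8% of all abundant transcripts. Their median difference was 0.40 in DMSO and 0.31 under PP242. Of 214 with RNA lower by as much, 1 was called higher and 155 lower (0.467% and 72.4%), with medians of -0.57 and -0.45. Across all 5694 abundant transcripts the median difference in DMSO was 0.02, and the footprint and RNA differences had a Spearman rho of 0.50 between them (Pearson r 0.53). Without RNA-seq of EIF4A2 KO cells the footprint difference cannot be divided into RNA and translation.

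Untreated footprints of the knockouts also differed by the length listed for each transcript. The files give a length per transcript without its unit, so it was used to rank the abundant transcripts into 5 classes of 1136 to 1145. From the shortest class to the longest, the median log2 difference was -0.12, -0.07, 0.01, 0.09 and 0.20 (0.195). In the shortest class 107 were called higher and 373 lower (9.35% and 32.6%), and in the longest 437 higher and 117 lower (38.4% and 10.3%), beside 21.3% and 20.8% over all abundant transcripts. The median level was alike, at 6.12 and 6.19 log2 CPM.

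Replicates were close to each other in these medians. As deviations from the mean of the 4 knockout libraries, the longest class stood at 0.10 and 0.07 in the EIF4A1 KO libraries and at -0.09 and -0.08 in the EIF4A2 KO libraries. Naive libraries stood at -0.15 and -0.17, beyond the EIF4A2 KO ones. The shortest class stood at -0.07 in both EIF4A1 KO libraries, at 0.06 and 0.07 in the EIF4A2 KO libraries and at 0.09 and 0.06 in the naive ones. The genotypes did not overlap in either class, and the EIF4A2 KO libraries lay with the naive ones on one side of the EIF4A1 KO libraries.

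Under PP242 the order by length was smaller and of opposite sign. The median difference was 0.04 in the shortest class and -0.05 in the longest. The longest class stood at -0.04 and -0.002 (-0.0018) in the EIF4A1 KO libraries at 1 and 10 µM, and at 0.03 and 0.02 in the EIF4A2 KO libraries. Across abundant transcripts, length correlated with the difference at a Spearman rho of 0.34 in DMSO and -0.10 under PP242. The RNA change of EIF4A1 KO cells also followed length, with a rho of 0.25 and medians of -0.07 in the shortest and 0.13 in the longest class.

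**Figure D4:**
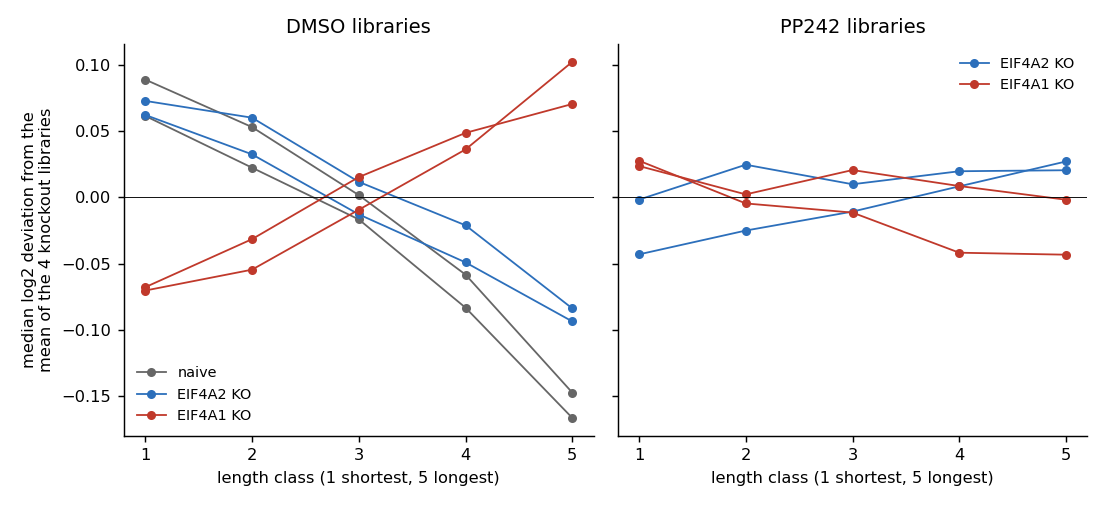
Median log2 deviation of each library from the mean of the 4 knockout libraries of the same treatment (vertical axis), over 5 length classes of abundant transcripts (horizontal axis); each line is 1 library. In DMSO the EIF4A1 KO lines rise with length from -0.07 to between 0.07 and 0.10 while the EIF4A2 KO and naive lines fall, and under PP242 the lines lie close to 0.

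Transcripts that respond to mTOR inhibition were picked from the naive libraries, which neither main test used. Each dose had 1 naive library, both doses were set against the same 2 naive DMSO libraries, and these changes were not tested. At both PP242 doses 151 abundant transcripts were at least 1 log2 unit below naive DMSO. Their listed lengths were short (median 147, beside 431 for all abundant transcripts) and their levels high (median 8.91 log2 CPM, beside 6.17). Without the drug the median difference between the knockouts was -0.03. Here 21 were called higher and 43 lower (13.9% and 28.5%), beside 21.3% and 20.8% of all abundant transcripts. The shortest length class (median length 134) had 9.35% called higher and 32.6% lower, with a median of -0.12. Deviations of the 151 were -0.005 (-0.0048) and -0.04 in the EIF4A1 KO libraries and 0.03 in each EIF4A2 KO library. The naive DMSO libraries, used in the choice, stood at 0.24 and 0.26. Under PP242 the same transcripts had a median difference of 0.57, with 130 called higher and 2 lower, beside 18.3% and 18.9% of all abundant transcripts under PP242, and stood at 0.34 and 0.23 in EIF4A1 KO against -0.29 and -0.26 in EIF4A2 KO cells. The genotypes did not overlap in these medians in either treatment, and the gap was wider under PP242; the difference between treatments was not tested. The DMSO median was small and moved with single libraries, to -0.012 without EIF4A1 KO replicate 2, -0.017 without EIF4A2 KO replicate 1 and -0.058 without EIF4A2 KO replicate 2.

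Another 31 abundant transcripts were at least 0.5 log2 units above naive DMSO at both doses. They had long listed lengths (median 878) and were higher in untreated EIF4A1 KO cells, with a median of 0.31. Of them, 17 were called higher and 1 lower (54.8% and 3.23%), beside 21.3% and 20.8% of all abundant transcripts. Their deviations were 0.18 and 0.14 in the EIF4A1 KO libraries and -0.15 and -0.17 in the EIF4A2 KO libraries. The naive DMSO libraries, used in the choice, stood at -0.36 and -0.35. Under PP242 the median was -0.09, with 4 called higher and 8 lower, beside 18.3% and 18.9% of all abundant transcripts. The longest length class (median length 1226) had 38.4% called higher and 10.3% lower in DMSO, with a median of 0.20. The part of length in the difference of these 31 was not tested.

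RNA pulldown on streptavidin beads had captured mRNAs with SBP-tagged eIF4A1 or eIF4A2, with 2 pulldown and 2 input libraries each. Transcripts called higher in EIF4A1 KO cells were depleted with both proteins, with a median log2 enrichment over input of -0.58 for eIF4A1 and -0.65 for eIF4A2. Replicates gave -0.55 and -0.60 for eIF4A1 and -0.65 each for eIF4A2. Those called lower stood at 0.21 and -0.02, and all tested transcripts at -0.10 and -0.19. The level differed as well, with a median of 5.44 log2 CPM for the higher calls and 3.96 for all tested, and the abundant transcripts stood at -0.33 and -0.52 (-0.525), nearer to the higher calls. Length moved with this: the median was 552.5 for the higher calls, 284 for the lower calls and 273 for all, and among abundant transcripts enrichment with eIF4A1 ran from 0.41 in the shortest length class to -0.98 in the longest. The part of length in the capture of the called transcripts was not tested. Only 68 abundant transcripts were captured at least 1 log2 unit more with eIF4A1 than with eIF4A2 in every pairing of replicates. Of these, 10 were called higher and 20 lower in the untreated knockouts (14.7% and 29.4%), beside 21.3% and 20.8% of all abundant transcripts. Their untreated median was -0.06. Under PP242 their median was 0.26, with 35 called higher and 3 lower, beside 18.3% and 18.9% of all abundant transcripts. The DMSO median was -0.035 without EIF4A1 KO replicate 2 and -0.104 with at least 50 counts required in every library. In the opposite direction there were 6 transcripts, of which 3 were called higher and 2 lower in DMSO.

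Differences were also shared by transcripts listed near each other. The 5694 abundant transcripts were taken in the order of the rows in the files and divided into 114 windows of 50 (the last of 44); what the row order stands for is not given by the files. Window medians of the untreated difference ranged from -0.48 to 0.76, while those of the difference between replicates of one genotype ranged from -0.13 to 0.10. Outside that replicate range lay 40 windows, 24 above and 16 below. Only 25 of the 40 had the same sign under PP242, so a shared sign was not general among them. Within the 40 windows 1002 of 2000 transcripts were called (50.1%), against 37.9% in the other windows. Window medians in DMSO correlated with those under PP242 at r = 0.68 and with the RNA change at r = 0.52. Neighbouring transcripts can share reads, and the windows were singled out by their values, so these figures are descriptions.

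The highest window spanned rows 48369 to 50846 of 227264. In it 40 of 50 transcripts were called higher and 4 lower (80% and 8%), beside 21.3% and 20.8% of all abundant transcripts. In this window 44 were above 0. Its median deviations were 0.42 and 0.34 in the EIF4A1 KO libraries, -0.36 and -0.38 in the EIF4A2 KO libraries, and 0.01 (0.009) and -0.05 in the naive ones, so naive cells lay near the mean of the knockouts. Under PP242 its median was 0.70, and the RNA change of EIF4A1 KO cells was 0.58, with 96% of its transcripts above 0. The windows of rows 151025 to 152628 and 152647 to 155434, next to each other, had medians of 0.54 and 0.45 in DMSO and 0.38 and 0.40 under PP242, with RNA changes of 0.10 and 0.11. The window of rows 216341 to 217682 stood at 0.45, and the next one, rows 217684 to 219327, was the lowest at -0.48. This lowest window had 8 called higher and 32 lower (16% and 64%), beside the same 21.3% and 20.8%. Its deviations were -0.22 in both EIF4A1 KO libraries and 0.22 and 0.23 in the EIF4A2 KO libraries, and its RNA change was 0.01.

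**Figure D5:**
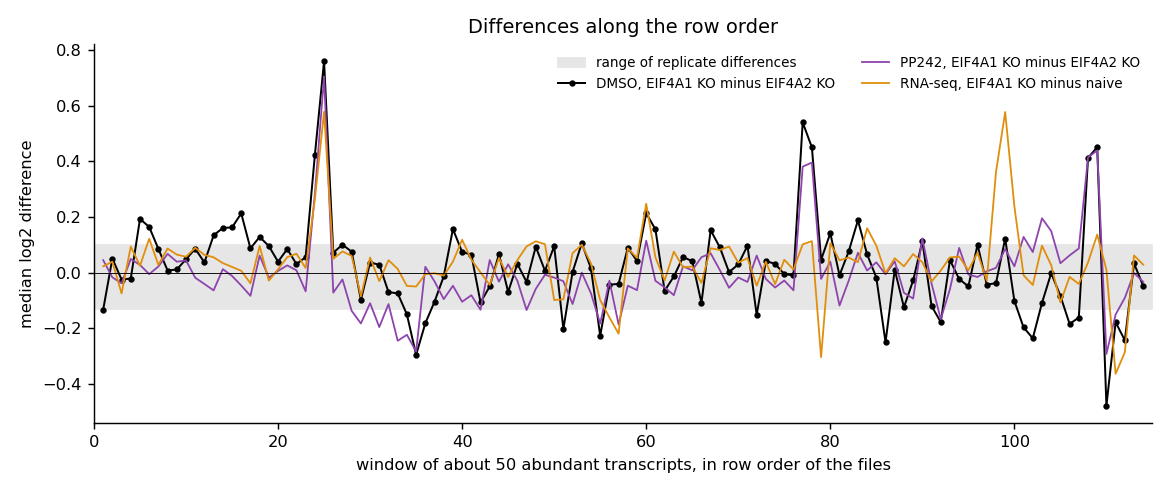
Median log2 difference (vertical axis) in 114 windows of about 50 abundant transcripts in row order (horizontal axis), for footprints in DMSO (black), footprints under PP242 (purple) and RNA of EIF4A1 KO against naive cells (orange); the grey band spans the window medians of replicate differences. The black and purple lines share their peaks, up to 0.76 and 0.70, and the orange line shares the first of them.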

How the data were processed

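Ribosome profiling, RNA-seq and RNA pulldown libraries of HEK293 T-REx cells were used, 31 in all. The authors deposited raw counts per Ensembl transcript, whole numbers with no scaling, and a length per transcript whose unit is not stated. This length was below 0 for 313 listed transcripts, and the shortest among transcripts tested was 4. CASAVA 1.8, STAR 2.7.0a and genome build hg38 are named in the submitters' processing notes; the counting tool and annotation release are not given in the sources used here. Of these transcripts 26549 shared their counts in all files with another, so equal rows were collapsed (94734 transcripts with counts to 77343) and 1 transcript per locus was kept: in order of total count, a transcript was dropped when its log2 CPM (pseudocount 0.5) correlated at 0.9 or more with a kept one within 10 distinct rows, leaving 35499. Unrelated neighbours can be dropped and transcripts of 1 locus kept. No table at hand pairs transcript IDs with genes, so the planned gene lists, the marker check and the levels of EIF4A1 and EIF4A2 were not run.

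Counts were tested with edgeR 4.0.16 in R 4.3.3 (TMM scaling, glmQLFit, glmQLFTest, two-sided). Low counts were removed by filterByExpr (minimum count 10, minimum total 15). Benjamini-Hochberg adjustment was made over all transcripts tested. DESeq2 1.42.0 was an alternative. CPM levels were scaled by TMM over the 12 profiling, 4 RNA-seq or 8 pulldown and input libraries. Scaling makes each log2 difference relative to the rest of its library; a shift common to all transcripts cannot appear. On counts simulated for the untreated comparison (17421 transcripts, 200 changed) the test found 92% of 1-unit and 100% of 2-unit log2 changes. The 200 were drawn only from transcripts with a mean of at least 50 counts, and all transcripts were given the same dispersion. These shares therefore do not cover transcripts of low level or of greater spread. Transcripts given by ID are the first 2 in each direction by size, among calls with a mean of at least 10 CPM and no overlap. Members, lists and sets were chosen with earlier results of these data known; the cuts that define the sets, length classes and windows were set after the values were seen. Counting intervals (95%, Clopper-Pearson) cover counting error only, and PCR duplicates were not told apart. Alternatives were other scalings, filters, tests, features, depths, fits and left-out libraries.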

Additional observations from a re-analysis of the deposited data

Results flagged for a closer look

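The groups below had all EIF4A1 KO libraries on one side of all EIF4A2 KO libraries in DMSO and on the other side under PP242; none of these differences between treatments was tested. The shortest length class stood at -0.117 log2 units (EIF4A1 KO minus EIF4A2 KO) in DMSO and 0.04 under PP242. The longest class stood at 0.195 and -0.05. The 151 transcripts that fell with PP242 in naive cells stood at -0.034 and 0.57, and the 31 that rose at 0.31 (0.3122) and -0.09. The first of these, -0.034, ranged from -0.058 (without EIF4A2 KO replicate 2) to -0.012 (without EIF4A1 KO replicate 2) when 1 library was left out, and was -0.017 without EIF4A2 KO replicate 1. The 68 transcripts captured more with eIF4A1 than with eIF4A2 stood at -0.055 and 0.26, with a DMSO value of -0.035 without EIF4A1 KO replicate 2 and -0.104 with at least 50 counts required. No group had 4 or more libraries, so no library could be tested as an outlier.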

How the results depend on the processing

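With all distinct transcripts in place of 1 per locus, 13196 were called in DMSO, 6199 higher and 6997 lower, and 12182 under PP242, 6300 higher and 5882 lower; more features were tested. The DESeq2 Wald test gave 1732 in DMSO (865 higher, 867 lower) and 1628 under PP242 (866 and 762); the cause was not tested. Leaving out 1 library gave 2583 to 3574 calls in DMSO, 1277 to 1620 higher and 1306 to 1954 lower, lowest without EIF4A1 KO replicate 1, and 2725 to 3240 under PP242. Libraries thinned to the smallest gave 2928 and 3394. The other alternatives, scaling, count filters, the dose term and the fits with more libraries, kept each count within 1.5 times. Replicate numbers did not pair the libraries: same-numbered libraries' deviations from their group means correlated at -0.006, and the replicate block gave 4304 calls (2063 higher, 2241 lower). The 4 transcripts given by ID kept sign and call under all 12 alternatives in which they were fitted. The median over all abundant transcripts was -0.023 with at least 50 counts required, against 0.024. The longest length class stayed between 0.147 and 0.212 and the shortest between -0.163 and -0.102, including a level minimum of 3 log2 CPM added after the data were seen. With windows of 100, also added then, the extremes were 0.497 and -0.232.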

Other observations

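Along the row order, RNA of EIF4A1 KO cells was also shifted where footprints of the knockouts differed less than in the highest footprint window. In rows 197263 to 198999 the median RNA change against naive cells was 0.58 (0.60 and 0.57 in the 2 libraries), with 98% of 50 transcripts above 0, nearly the value of the highest footprint window. The footprint difference between the knockouts was 0.12 there in DMSO and 0.09 under PP242. In DMSO 16 were called higher and 2 lower (32% and 4%), beside 21.3% and 20.8% of all abundant transcripts. Footprints of the naive libraries stood at -0.33 and -0.41, below those of both knockouts (0.07 and 0.06 for EIF4A1 KO, -0.09 and -0.04 for EIF4A2 KO).

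Abundant neighbours in the row order had similar untreated differences, with r = 0.33 at a distance of 1 transcript, 0.19 at 5, 0.15 at 20 and 0.05 at 50. Differences between replicates gave 0.09 and 0.13 at a distance of 1 for EIF4A1 KO and EIF4A2 KO, and -0.001 and 0.01 at 20. Only 1 transcript had 0 counts in both EIF4A1 KO libraries and at least 20 in each EIF4A2 KO library, and 0 had the reverse pattern.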
